A study of Actinidia chinensis with 12 samples.

Results

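Ripened kiwifruit of the red-fleshed cultivar Hongyang carried reads for 113 genes that had none in the yellow-fleshed cultivar Jinyan. They were selected on their counts, out of 39040 gene identifiers in all: each had 0 counts in the 6 libraries of Jinyan, while its level in the 6 libraries of Hongyang averaged 1 CPM or more (CPM, the count scaled to a library total of 1000000). These values chose the genes, so their absence from Jinyan and their level in Hongyang are a description and were not tested. The tissue labels did not enter the choice, and the difference between the tissues of Hongyang was tested gene by gene. The mean that chose the genes is over the same Hongyang libraries, however, and a gene could reach it through 1 tissue or 1 library, so counts and spreads over the set are a description.

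The samples were ripened fruits taken straight from the tree, and each cultivar gave 3 libraries labelled whole fruit and 3 labelled flesh core. What the labels call whole fruit is called periphery in the design text, and the label is used here. The labels do not tell separate trees or fruits from pooled material, and p-values therefore measure only the spread between these libraries, which may be technical. Poly(A) RNA was sequenced, and library totals ran from 1888744 to 21222578 counts.

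The core of a kiwifruit is the pale central column, surrounded by the seed-bearing inner pericarp and the outer pericarp. In Hongyang the red anthocyanin pigment lies in the inner pericarp around the core. Jinyan was bred from a cross of Actinidia eriantha with Actinidia chinensis, although the labels name Actinidia chinensis for both cultivars. Plant cultivars often differ in gene content as well as in gene expression, and alleles from another species can differ in sequence from a reference. The prefix Achn belongs to the gene models of the first kiwifruit draft genome, which was assembled from Hongyang, whereas no source used here names the build the reads were aligned to. In these counts, a gene that was not transcribed in Jinyan, a gene missing from its genome and a gene whose Jinyan reads did not align cannot be told apart. The table pairs no identifier with a gene name, so no product or position is given for any gene, and neither tissue could be checked against marker genes.

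The Jinyan libraries held 77983648 counts together, so a gene at 1 CPM would have gathered about 78 counts there. A count of 0 over these 6 libraries allows a level of up to 0.0385 CPM (3 counts of the total, counting error only). Against that limit, the Hongyang level was at least 38.6-fold higher for the median gene. Both sides of this bound entered the choice of the genes, so it is a description. The bound ran from 4.45-fold for Achn315141 to 54986-fold for Achn288361, taking for each gene the smaller of its mean CPM and its CPM over pooled Hongyang counts. The 3 whole fruit libraries of Jinyan contributed 24476198 counts and the 3 core libraries 53507450, so each tissue taken alone allows up to 0.123 and 0.0561 CPM.

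Absence from Jinyan became rarer as the Hongyang level rose. Of 2286 genes with a Hongyang mean of 1 to under 2 CPM, 68 (2.97%) had no Jinyan counts. The share was 0.758% (27 of 3564 genes) from 2 to under 5 CPM, 0.233% (8 of 3431) from 5 to under 10 CPM and 0.0989% (9 of 9101) from 10 to under 100 CPM. A single gene of the 1378 at 100 CPM or more was among them. The reverse class, genes with 0 counts in the 6 libraries of Hongyang and 1 CPM or more on average in Jinyan, held 60 genes. Its shares in the same order of levels were 1.36%, 0.596%, 0.121% and 0.0385%, with 0 genes at 100 CPM or more. The share was thus larger in the Hongyang direction at every level, on 1 gene against 0 at 100 CPM or more. The directions were not alike in depth. A 0 in Jinyan rests on 77983648 counts and a 0 in Hongyang on 87617307, and the Hongyang means include a library of 1888744 counts. The difference between the directions, and the part of depth in it, was not tested.

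**Figure D1:**
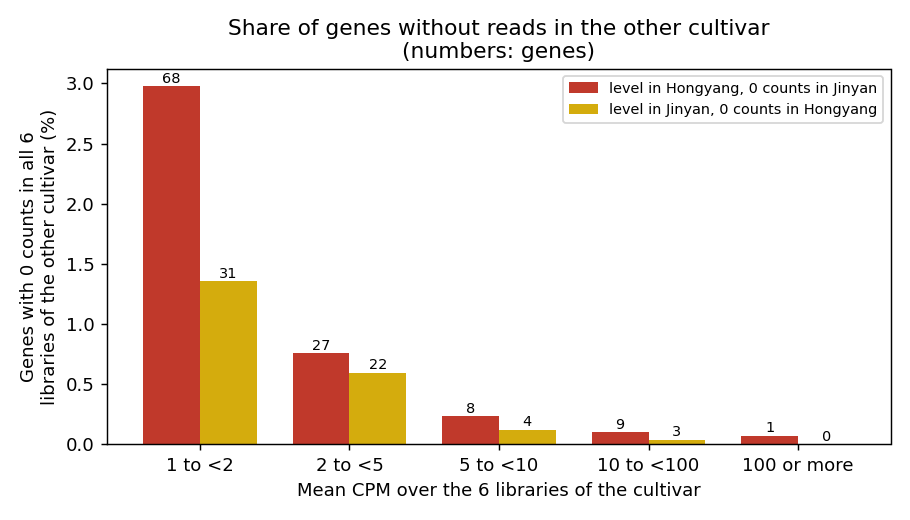
Bars give the percentage of genes with 0 counts in all 6 libraries of the other cultivar, by the mean CPM in the cultivar named in the legend; the number above each bar is the number of genes. Both shares fall with the level, from 2.97% and 1.36% at 1 to under 2 CPM.

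The limit of 0 counts lay within a continuum. Among 19760 genes with a Hongyang mean of at least 1 CPM, 113 (0.572%) had 0 Jinyan counts, 46 had 1 or 2 counts, 58 had 3 to 5 and 110 had 6 to 10, summed over 6 libraries. Of the genes kept out by 1 or 2 counts, the highest in Hongyang were Achn014911, at a mean of 60.0 CPM, and Achn260221, at 37.9 CPM. Each had 2 Jinyan counts, all in 1 core library. At the other edge, Achn343901 and Achn291451 lay just inside at 1.03 and 1.00 CPM, and Achn165491 and Achn220771 just outside at 0.991 and 0.987 CPM. Allowing up to 10 Jinyan counts would have raised the number from 113 to 327, whereas a minimum of 5 CPM would have left 18.

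Most of the 113 genes were weakly expressed, and Achn288361 stood far above the rest. The median of the gene means was 1.81 CPM, 68 genes lay under 2 CPM, and 10 reached 10 CPM. Achn288361 stood at 844, 1910 and 1006 CPM in Hongyang whole fruit replicates 1, 2 and 3 and at 4737, 1347 and 2848 CPM in core replicates 1, 2 and 3. The tissues overlapped, since core replicate 2 lay below whole fruit replicate 2. With a mean of 1253 ± 575 CPM (SD, n = 3) in whole fruit and 2977 ± 1699 CPM (SD, n = 3) in core, its log2 difference of core minus whole fruit was 1.39 ± 0.58 (SE), which did not pass edgeR's quasi-likelihood test (adjusted p = 0.31). It was 2.02 without whole fruit replicate 2 (edgeR adjusted p = 0.078), and limma voom with sample weights called it, at 1.78 (adjusted p = 0.015). This gene alone took 84.2% of the 236449 counts of the 113 genes.

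Achn328711 came next, at 93.8, 82.6 and 51.4 CPM in the whole fruit libraries and 85.4, 126 and 102 CPM in the core libraries. The groups overlapped, and the log2 difference was 0.62 ± 0.33 (SE; edgeR adjusted p = 0.39). The third, Achn389861, was at 31.9, 24.7 and 57.2 CPM in whole fruit and 18.3, 17.5 and 22.6 CPM in core. Every core library of this gene lay below every whole fruit library, and its log2 difference was -0.69 ± 0.27 (SE; edgeR adjusted p = 0.30). Achn151151 was at 10.2, 25.9 and 11.6 CPM in whole fruit and 14.7, 11.5 and 12.4 CPM in core, and only whole fruit replicate 2 stood apart. Achn333671 had 17.1, 16.9 and 12.7 CPM in whole fruit and 5.66, 9.80 and 13.3 CPM in core, with overlap (edgeR adjusted p = 0.49).

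A few members were steady over all Hongyang libraries. Among the 45 genes at 2 CPM or more, the smallest coefficients of variation over the 6 libraries belonged to Achn179531 (16.9%), Achn326491 (18.8%) and Achn131061 (19.9%). Achn179531 stood at 20.7, 18.2 and 28.1 CPM in whole fruit and 18.8, 19.8 and 22.0 CPM in core. Its log2 difference between the tissues was 0.09 ± 0.21 (SE; edgeR adjusted p = 0.87) with TMM scaling and -0.12 with library totals only, the scale of the CPM values. Achn326491 had 6.20, 5.60 and 5.29 CPM in whole fruit and 3.57, 4.29 and 5.23 CPM in core, each core value being below each whole fruit value. Its log2 difference was -0.22 ± 0.33 (SE; edgeR adjusted p = 0.77). Achn131061 ranged from 2.38 to 4.52 CPM, with overlap. At the other end, Achn069701 had 244.9%, Achn247271 200.2% and Achn336791 153.4%. Achn247271 reached 13.9 CPM in core replicate 2 and no more than 1.12 CPM in any other library. Achn336791 was also highest in core replicate 2, at 10.4 CPM, followed by 3.47 CPM in core replicate 3.

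Unevenness between libraries was common in this set. A single library held most of a gene's summed CPM for 37 of the 113 genes (32.7%), against 5.43% of all 19760 genes with a Hongyang mean of at least 1 CPM. Low counts alone give uneven values, and the shares within levels were 39.7% against 17.6% at 1 to under 2 CPM and 22.2% against 3.83% at 2 CPM or more. The median coefficient of variation was 96.3% against 70.1% in the lower band and 57.7% against 33.9% in the upper. In the reverse class, most of the summed CPM lay in 1 Jinyan library for 4 of 60 genes (6.67%), and the median coefficient of variation was 46.2% against 72.9% for the 113 genes. The Jinyan and Hongyang libraries differed in depth and in spread, and the part of either in these values was not tested.

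Of the 37 uneven genes, 24 were highest in Hongyang whole fruit replicate 3, the library with 1888744 counts, where 1 count is worth 0.529 CPM. How often that library was highest among all similarly uneven genes was not computed, so the 24 are only a description. That library was the highest for 46 of the 113 genes (40.7%), close to the 40.0% among all genes with a Hongyang mean of at least 1 CPM. It also had the most members at 0, 33 genes, against 7 to 19 in the other Hongyang libraries. A count of 0 there allows up to 1.59 CPM, and for 18 of the 33 genes the mean of whole fruit replicates 1 and 2 was below that limit. At that library's depth, 82.4 to 92.9 members would have had counts in each of the other 5 libraries by the hypergeometric expectation, against the 80 seen in it. Counts in all 6 libraries helped to choose the members, that library's among them, so this is a description. The part of depth in the 33 was not tested. When it was left out of the mean, 86 of the 113 genes still reached 1 CPM and 9 others joined them.

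**Figure D2:**
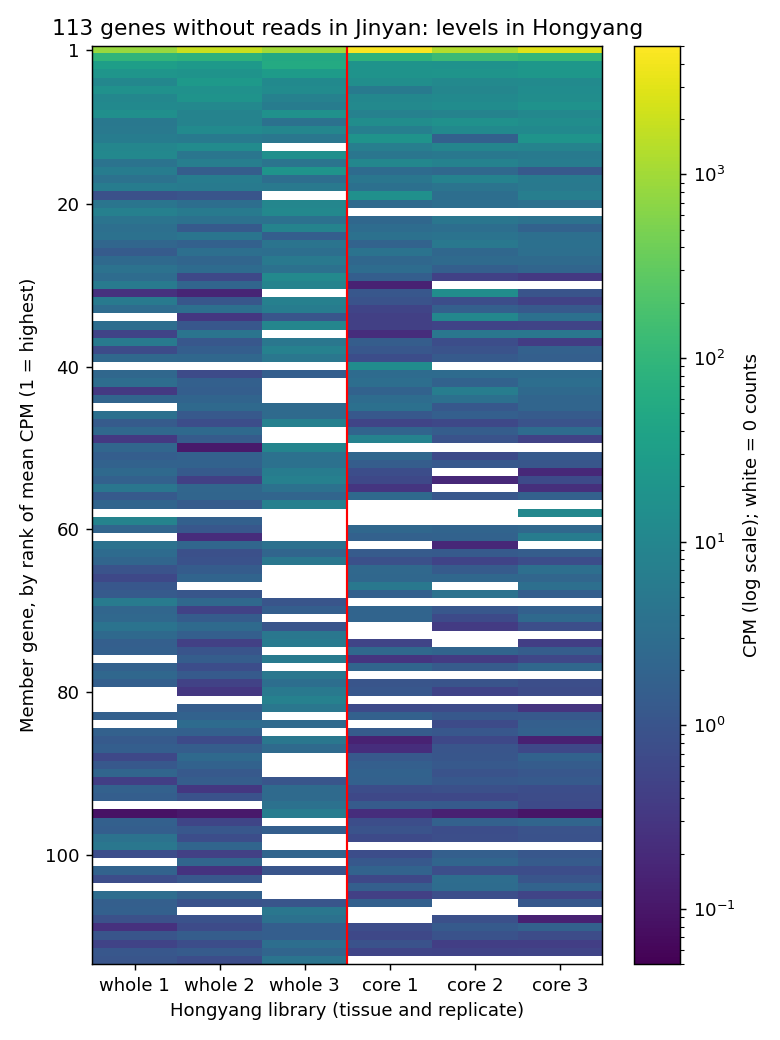
Each row is 1 of the 113 genes, ordered by mean CPM, and each column is a Hongyang library, with CPM on a log colour scale and white for 0 counts; the red line parts whole fruit from core. White cells are most frequent in whole fruit replicate 3 (33 genes), and Achn288361 in the top row is the brightest in each library.

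Counts in all 6 Hongyang libraries were found for 56 genes, in 5 libraries for 36 and in 1 library for 3. Achn069701 had 179 counts in core replicate 1 (13.3 CPM) and none in the other 5 libraries. Achn170801 likewise had 227 counts in core replicate 3 (10.8 CPM) and none elsewhere. Achn315141 had 15 counts (7.94 CPM), all in whole fruit replicate 3. These 3 genes entered the set through a single library each, and leaving that library out removes them.

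Across the 113 genes, core libraries ranked the genes more alike than whole fruit libraries did. Spearman's rho between core libraries was 0.720 to 0.838, and between whole fruit libraries 0.610 for replicates 1 and 2, 0.453 for replicates 1 and 3 and 0.266 for replicates 2 and 3. Whole fruit replicate 2 correlated with the core libraries at 0.418 to 0.491, above its value with its own group's replicate 3. Replicate 3 correlated with the core libraries at -0.026 to 0.0395. By Pearson's r on log2 values, replicate 3 gave 0.428 to 0.441 with the core libraries. By that measure whole fruit replicates 1 and 2 gave 0.843, and the core libraries 0.835 to 0.899 among themselves. These are correlations over genes that share the libraries, given without a test, and many of the genes have few counts in replicate 3.

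The remaining comparison asks whether the genes differed between core and whole fruit of Hongyang. In an edgeR fit of the 6 Hongyang libraries, 103 of the 113 genes passed the filter on low counts and were tested. The filter asks for a minimum level in several libraries and not only for a total. The 10 untested genes had 15 to 227 counts over the 6 libraries and included the 3 seen in 1 library. Achn318731 was lower in the core, and it was the 1 member that passed (1 of 103, where 0.313% of all 20752 tested genes were called lower and 0.366% in either direction). In bulk tissue, fewer cells of a type and less RNA per cell cannot be told apart. No member was called higher, where 0.053% of all genes were. At an unadjusted p under 0.05, 8 members were higher and 17 lower, together 24.3% of the 103, against 15.2% of all genes tested. DESeq2 on the same libraries called 5 members higher (2.8% of all genes) and 11 lower (2.52%), and limma voom with sample weights called 9 higher (8.78%) and 18 lower (9.38%). With all 12 libraries in the edgeR fit, 3 were called higher (2.5%) and 7 lower (2.18%). With no filter on low counts, 2 were called higher (0.273%) and 7 lower (0.599%). Without whole fruit replicate 2, 1 was called higher (1.16%) and 4 lower (1.17%), and without whole fruit replicate 3, 1 higher (0.365%) and 6 lower (1.1%). The biological coefficient of variation was 0.526 in Hongyang whole fruit, 0.237 in Hongyang core, 0.158 in Jinyan whole fruit and 0.227 in Jinyan core.

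Achn318731 had 7.49, 5.65 and 10.6 CPM in whole fruit replicates 1, 2 and 3 (87, 104 and 20 counts), and 0 counts in each core library. Its level in whole fruit was 7.91 ± 2.50 CPM (SD, n = 3). The core stood at least 123-fold lower, taking 3 counts over the 3 core libraries as the limit (edgeR adjusted p = 0.016). The bound was 76.0-fold and 76.4-fold without core replicates 2 and 3, where fewer counts stand behind the 0. The call was lost without core replicate 1, 2 or 3 (edgeR adjusted p = 0.059, 0.061 and 0.057) and without whole fruit replicate 1 (edgeR adjusted p = 0.19), in fits that called 0 genes of any kind. Without the shallow whole fruit replicate 3 it passed (edgeR adjusted p = 0.011).

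Over the 103 tested genes, the median log2 difference of core minus whole fruit was -0.03, against 0.00 over all genes tested, and 51 were positive and 52 negative. The 7 tested genes with 0 counts in a tissue kept their side when set to their bound, so the median was -0.03 by construction. The spread was wider than over all genes: the quartiles were -1.16 and 0.77 against -0.44 and 0.42. Differences below -1 were fitted for 27.2% of members and 9.00% of all genes, and differences above 1 for 19.4% and 8.36%. Low levels widen fitted differences, and the part of that in these shares was not tested.

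By CPM alone, every core library lay above every whole fruit library for 10 of the 113 genes (8.85%), where 9.86% of the 19760 genes with a Hongyang mean of at least 1 CPM did so. Every core library lay below for 27 members (23.9%), against 16.8% of those genes. With TMM scaling, which corrects for library composition, the numbers were 13 and 23 of the 113, against 14.8% and 11% of those genes. Without whole fruit replicate 2 they were 19 and 43 of the 113, nearly the same shares as the 16.6% and 38.1% of those genes. Members were thus not in excess below when that library was left out. Without whole fruit replicate 3 they were 14 and 32 of the 113, against 12.9% and 23.8%. Without whole fruit replicate 1 they were 17 and 30 of the 113, against 15% and 20%. Without core replicate 1, 2 or 3, 15, 17 and 12 of the 113 lay above, against 14.5%, 12.2% and 11.3%. Below lay 33, 27 and 30 of the 113, against 21.8%, 19.4% and 20.5%. Except without whole fruit replicate 2, the share of members below was larger than that of those genes, and this was not tested.

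**Figure D3:**
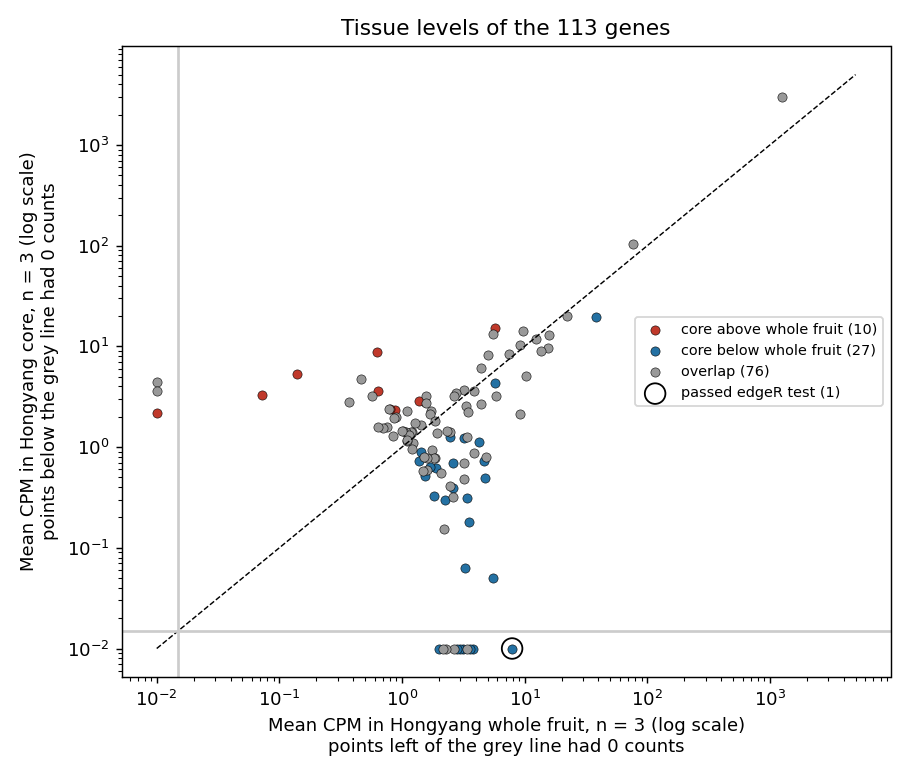
Each point is 1 of the 113 genes, with its mean CPM in Hongyang whole fruit on the x axis and in Hongyang core on the y axis (log scales, n = 3 each); colour gives the order of the libraries (red, every core library above; blue, every core library below; grey, overlap), and genes with 0 counts in a tissue sit beyond the grey lines. Points along the bottom are the 11 genes without core counts, with Achn318731 circled at 7.91 CPM, and points on the left are the 3 genes without whole fruit counts.

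Most members, 99 genes, had counts in both Hongyang tissues, 11 had counts in whole fruit only and 3 in core only. Of all genes with a Hongyang mean of at least 1 CPM, 49 (0.248%) had no core counts and 8 (0.0405%) no whole fruit counts. Members thus made up 22.4% (11 of 49) of the genes seen in whole fruit only and 37.5% (3 of 8) of those seen in core only. Of the core-only members, Achn069701 and Achn170801 had counts in 1 library each. Most members lay at low levels, where 0 counts in a tissue come more easily, and the part of that was not tested. Without whole fruit replicate 3 the members in whole fruit only were 10 and those in core only 4. The shares of all genes with a Hongyang mean of at least 1 CPM were then 0.243% and 0.0759%. Without whole fruit replicate 2, 11 members were seen in whole fruit only (0.248% of all such genes). In core only there were then 5 members among 111 such genes (0.562%). Without whole fruit replicate 1 the members numbered 11 (0.243%) and 4 (0.0709%). Without core replicate 1, 2 or 3, those in whole fruit only numbered 12, 12 and 11 (0.349%, 0.334% and 0.385%) and those in core only 2, 3 and 2 (0.0354%, 0.0405% and 0.0354%). Of the reverse class, 6 of 60 genes were seen in Jinyan whole fruit only and 0 in Jinyan core only. The matching shares of all genes with a Jinyan mean of at least 1 CPM were not computed, so these numbers are only a description.

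After Achn318731, the highest of the 11 whole fruit genes were Achn381331 and Achn229111. Achn381331 had 2.24, 0.109 and 9.00 CPM in the whole fruit replicates, from 26, 2 and 17 counts, and did not pass the filter for the test. Achn229111 had 2.07, 1.36 and 7.41 CPM there and 0 in each core library, at least 36.7-fold lower (edgeR adjusted p = 0.089), or 22.7-fold and 22.8-fold without core replicates 2 and 3. The core-only gene with counts in each core library was Achn339741, at 1.64, 2.97 and 2.00 CPM in core and 0 in whole fruit. It stood at least 23.4-fold higher in core, without passing the test (edgeR adjusted p = 0.078). It passed with whole fruit replicate 3 left out (edgeR adjusted p = 0.029), with a bound of 22.0-fold. The bound was 9.91-fold without whole fruit replicate 2 and 14.9-fold without whole fruit replicate 1. DESeq2, limma voom with sample weights, the fit of all 12 libraries and the fit with no filter on low counts also called Achn339741. Together these were 5 of 15 settings, and each called more of all genes than the main fit. Achn229111 was called in 4 of 15 settings, the same without the fit that left out replicate 3.

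**Figure D4:**
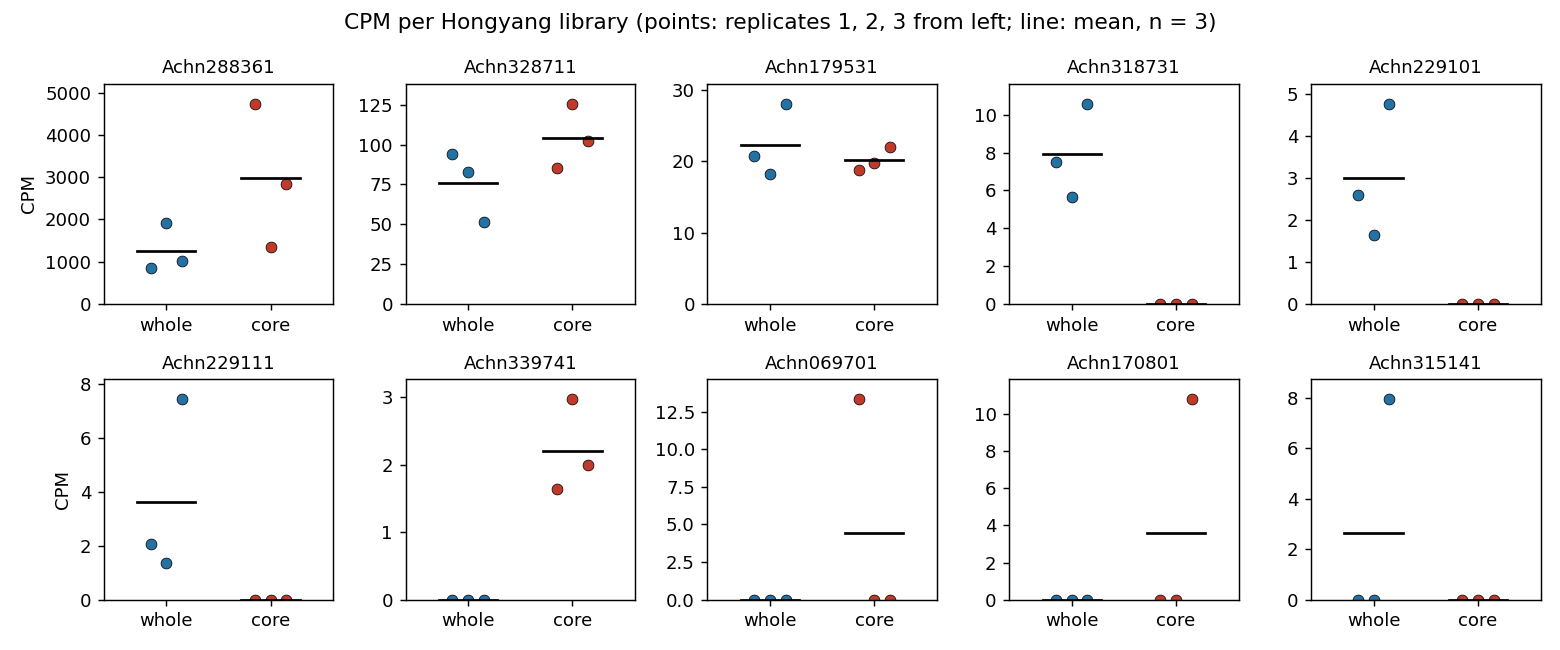
CPM in each Hongyang library for 10 of the genes, with points for replicates 1, 2 and 3 from left to right in each tissue and a line at the mean (n = 3). Achn318731, Achn229101 and Achn229111 have counts in whole fruit only, Achn339741 in each core library only, and the last 3 panels show genes with counts in 1 library.

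Identifier numbers gave 1 pair of neighbours among the members. Achn229101 and Achn229111 follow each other in the numbering, and both had counts in the 3 whole fruit libraries and none in the core. Achn229101 stood at 2.58, 1.63 and 4.77 CPM in whole fruit, at least 40.2-fold above the core (edgeR adjusted p = 0.066). Its order over the replicates was that of Achn229111, with replicate 3 highest and replicate 2 lowest. The order was not particular to the pair. Of the other whole fruit genes with counts in all 3 replicates, Achn318731, Achn381331, Achn253571 and Achn291451 had it too, and Achn262661 did not. Achn229101 passed without whole fruit replicate 2 or 3 (edgeR adjusted p = 0.049 and 0.046) and did not without any of the other 4 libraries (0.17 to 0.39). DESeq2, limma voom with sample weights, the fit of all 12 libraries and the fit with no filter also called it, together 6 of 15 settings. The bound was 24.9-fold and 25.0-fold without core replicates 2 and 3. Whether neighbouring numbers lie side by side in the genome is not stated, and reads shared between similar copies could be split between them. The other identifiers next to a member numbered 223, and 75 of them (33.6%) had no Jinyan counts, against 27.9% of all identifiers. Of these 75, 52 had no counts in any library of either cultivar. Of the 100 neighbours at 1 CPM or more in Hongyang, 94 (94%) also had a Jinyan mean of at least 1 CPM, against 90.0% of all genes at that Hongyang level.

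The summed level of the members differed between libraries mainly through Achn288361. It ran from 1300 CPM in whole fruit replicate 1 to 5135 CPM in core replicate 1, and Achn288361 made up 64.9 to 92.3% of it. Without that gene, the other 112 members summed to 456, 406 and 539 CPM in whole fruit and 397, 428 and 437 CPM in core. These sums overlapped between the tissues.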

How the data were processed

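The authors deposited raw counts per gene identifier for 12 libraries, with 1 column per library that the sample descriptions identify. The submitters' processing notes name Trimmomatic 0.36, a read trimmer, and HISAT2 2.1.0, an aligner. No source used here names the counting program, build, strand setting or treatment of multiply aligned reads. Counts of similar or overlapping genes are therefore uncertain.

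CPM was the count over the column total. The tissue test used edgeR 4.0.16 in R 4.3.3 on the 6 Hongyang libraries (filterByExpr by group, TMM, quasi-likelihood fit of 2 group means), with Benjamini-Hochberg adjustment over all genes tested, two-sided, at 0.05. The limit for 0 counts was 3 counts. Standard errors came from the F statistic. Alternatives used DESeq2 1.42.0 and limma 3.58.1, among others. The fit was tested on simulated data. Replicates differed by more than sampling noise in every group, with a chi-square of 5.76 to 126 per degree of freedom.

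Named genes were the 6 highest members, those called, the 3 steadiest and 3 most variable at 2 CPM or more, those of 1 tissue or 1 library, those at the edges of the rule and identifier neighbours. The members and lists were chosen with earlier results of these data known. Lists of genes by product were not used, since no identifier has a name here.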

Additional observations from a re-analysis of the deposited data

How the results depend on the processing

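The number of genes without Jinyan reads was set by its limits. It was 243, 45, 18 and 10 at a minimum mean of 0.5, 2, 5 and 10 CPM, and 217 and 327 when up to 5 and 10 Jinyan counts were allowed. Leaving out 1 library gave 95 to 147 genes, the lowest without Hongyang whole fruit replicate 3 and the highest without Jinyan whole fruit replicate 3. With counts pooled over the Hongyang libraries, an alternative chosen after seeing the data, it was 99, of which 88 were members. Members called higher in Hongyang core numbered 5 with DESeq2, 3 with all 12 libraries, 9 with limma voom and 2 without a filter on low counts. Those called lower numbered 11, 7, 18 and 7 in the same order. With the replicate block 0 were called lower, where 58 of all 20752 genes were called in either direction. At a mean of at least 5 CPM 0 of 18 members were, where 61 of 13910 genes were called. Achn318731, at a mean of 3.95 CPM, was not among those 18, so that 0 is not a lost call. Leaving out 1 library gave 0 to 1 higher and 0 to 6 lower; 4 of these 6 fits called 0 genes of all tested, and those without Hongyang whole fruit replicates 2 and 3 called 491 and 321. Same-numbered tissue libraries did not deviate together (correlations of -0.024, 0.095 and -0.028), so the numbers were not taken as pairs, and Achn318731 had an edgeR adjusted p = 0.052 with the block. The median log2 difference of the members ran from -0.25, with library totals only, to 0.07; library totals only moved the median of all genes to -0.19. Of 2 uncalled genes, Achn179531 changed sign with library totals only (-0.12), and Achn151151 with limma voom (0.33) and without Hongyang whole fruit replicate 2 (0.56, where leaving out 1 library gave -0.50 to 0.56). The cause was not tested. After seeing the data, each Hongyang library was also left out of the tissue orders: 12 to 19 members lay higher in the core, 27 to 43 lower, 10 to 12 were seen in whole fruit only and 2 to 5 in core only. At 1 CPM a member gathers about 2 counts in the shallowest library, which limits what its 0 values show.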
